A study of Mus musculus with 24 samples.

Results

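The genes described here are 10 transcripts that mark macrophages, namely C1qa, C1qb, C1qc, Csf1r, Mrc1, Cd68, Lyz2, Ctss, Tyrobp and Fcer1g. They were chosen by name, as the rows of the deposited expression table that carry these symbols, and are 10 of its 49452 genes. RNA sequencing was done on 24 cultures of primary adipocyte precursors, the stromal vascular fraction (SVF) of brown adipose tissue (BAT) or of epididymal fat, the visceral white depot (vWAT), of male wild-type C57BL/6 mice. The cells received an siRNA against H19 (siH19), a long non-coding RNA made from the maternal allele, or a non-targeting siRNA (siCtrl), and were collected on day 0 (d0) or on day 3 (d3) of adipocyte differentiation. This gives 8 groups of 3 libraries, BAT siCtrl d0, BAT siCtrl d3, BAT siH19 d0, BAT siH19 d3 and the same for vWAT. The sample titles write siKO where the siRNA label reads non-targeting control, and the label was followed. They name the H19 siRNA siH19_3 throughout, so every siH19 value rests on the same siRNA. Per the study's methods the cells were freed by collagenase, filtered and plated with no sort for or against immune cells. Pooling of tissue where needed is stated for BAT only. The enzyme dispase was added to the BAT digestion and not to that of vWAT, and the cultures were induced with different cocktails. The library labels also number BAT and vWAT as separate series. Depot therefore cannot be told apart from digestion, any pooling and label series at either day, or from cocktail at d3. Nothing states that the 3 libraries of a group came from separate animals or cultures.

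Macrophages live in every fat depot among the precursor cells, take up lipid and dead cells, and come along when the SVF is plated. C1qa, C1qb and C1qc encode the 3 chains of C1q, the recognition part of the classical complement pathway, which tissue macrophages secrete. Csf1r is the receptor for the growth factor CSF1, on which macrophages depend, and Mrc1 (CD206) is a mannose-binding endocytic receptor of tissue-resident macrophages. Cd68, Lyz2 and Ctss are a lysosomal membrane glycoprotein, lysozyme M and the protease cathepsin S, and Tyrobp (DAP12) and Fcer1g are ITAM adaptors, small membrane proteins that carry the signal of many myeloid receptors to kinases. Lyz2, Ctss, Tyrobp and Fcer1g are also used by other white blood cells, so the lists for those cells are given with the members. Values are FPKM, fragments counted per length of transcript and per library size. In a bulk culture, fewer macrophages and less of a transcript per macrophage cannot be told apart, and with no pure macrophage library at hand a level in FPKM cannot be turned into a share of cells.

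Of the 10 members, 7 have an upstream sequence in the RefSeq table used (GRCm38.p6). Because the members are read as a set, these windows were searched on both strands for 8 short strings after the levels were known, among them GAGGAA, a core of the sites bound by PU.1, the myeloid transcription factor encoded by Spi1. GAGGAA or its complement TTCCTC stood in the windows of C1qb, C1qc, Cd68, Ctss and Mrc1, 5 of 7, and in 23.3% of all 32851 windows. The 4 shown hold it once each and come from the complement, lysosome and protease members. Capitals mark the string, each sequence is read 5′ to 3′ on the strand of its gene, and the C1qc window is cut to its first 99 bases because the gene starts there in the annotation of the deposited table.
C1qb, chr4:136886201-136886450, minus strand: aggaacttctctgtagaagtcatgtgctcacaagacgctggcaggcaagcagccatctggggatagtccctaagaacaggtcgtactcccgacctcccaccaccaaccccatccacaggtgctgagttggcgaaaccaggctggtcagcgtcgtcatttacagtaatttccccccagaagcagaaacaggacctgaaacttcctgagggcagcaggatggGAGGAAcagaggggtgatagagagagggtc
C1qc, chr4:136893066-136893164, minus strand: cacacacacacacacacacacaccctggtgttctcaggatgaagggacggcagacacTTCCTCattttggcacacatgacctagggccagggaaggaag
Cd68, chr11:69666171-69666420, minus strand: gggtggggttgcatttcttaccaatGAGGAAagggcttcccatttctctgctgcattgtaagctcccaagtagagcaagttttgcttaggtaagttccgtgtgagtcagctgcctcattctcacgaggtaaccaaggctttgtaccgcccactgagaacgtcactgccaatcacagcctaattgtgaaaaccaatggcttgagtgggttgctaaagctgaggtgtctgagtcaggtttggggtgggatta
Ctss, chr3:95526536-95526785, plus strand: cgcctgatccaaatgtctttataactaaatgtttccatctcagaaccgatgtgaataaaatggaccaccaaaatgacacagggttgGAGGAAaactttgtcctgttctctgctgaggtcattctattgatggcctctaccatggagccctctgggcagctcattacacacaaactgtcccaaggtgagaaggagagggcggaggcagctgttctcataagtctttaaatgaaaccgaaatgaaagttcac
The string starts 30 bases before the RefSeq start of C1qb, 193 before that of C1qc, 225 before that of Cd68 and 164 before that of Ctss.
The related strings overlap with it. AGGAAGT was in the windows of C1qb, C1qc, Lyz2 and Mrc1 (7.69% of all windows), GGAAGT in the same 4 (19.7%), GAGGAAG in C1qc and Mrc1 (10.6%) and GAGGAAGT in C1qc (2.44%). The AP-1 string TGACTCA was in the Cd68 window (4.46%), TATAAA in that of Ctss (12.4%) and the E-box CACGTG in none of the 7 (6.02%). A match describes letters and is not evidence of binding.

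Depth, read from the steps between low values, was 19300000 to 27200000 fragments per library, with BAT at 19300000 to 22900000 and vWAT at 23700000 to 27200000. The lowest value of any member rested on about 14.4 fragments (Fcer1g) and no member was at 0 in any library. H19 averaged 130.3 and 89.8 FPKM in BAT siCtrl at d0 and d3 against 4.36 and 13.7 in BAT siH19, and 11.7 and 8.59 in vWAT siCtrl against 1.21 and 0.528 in vWAT siH19. vWAT siCtrl d0 replicates 2 and 3 stood apart for neutrophil transcripts: the 8 neutrophil markers summed to 417.5 and 205.8 FPKM there and to 3.41 to 9.02 in the other 22 libraries. Most of these 2 sums came from S100a8 (183.6 and 77.6 FPKM) and S100a9 (174.6 and 91.0). Ngp stood at 17.2 and 13.2, while Ly6g (0.279 and 0.307) and Retnlg (0 and 0.205) were near the floor. Both libraries are called neutrophil-bearing below for these transcripts, and whether they held neutrophils was not tested. Counts or differences of the members in fits that use these libraries are also given without them, as are counts of other macrophage and myeloid genes over time and by depot. Then vWAT siCtrl d0 holds 1 library, taken to vary like the other groups, and fewer of all genes were called in each of the 6 fits, so the differences are given with the calls.

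The label was checked against other markers. Of 47 other macrophage and myeloid genes, 42 had a mean over the 24 libraries of at least 1 FPKM, led by Pf4, Gpnmb and Alox5ap. By group mean fewer reached 1 FPKM in BAT: 33 in siCtrl d0, 26 in siCtrl d3, 30 in siH19 d0 and 14 in siH19 d3. In vWAT 41, 42, 40 and 42 did, in the same order, so the check is weaker in BAT. Adgre1, which encodes the macrophage antigen F4/80, ranged over libraries from 0.631 to 7.17 FPKM. None of the 12 T and NK cell markers, 6 B cell markers and 6 mast cell markers reached a mean of 1 FPKM, and their highest values in any library were 1.85 (T and NK cells), 1.23 (B cells) and 1.26 FPKM (mast cells). Of 6 dendritic cell markers only Zbtb46 did, while Itgax averaged 0.25 FPKM. Of 7 antigen presentation genes 4 reached a mean of 1 FPKM, led by H2-DMb1 at 4.30, H2-DMa at 2.84 and H2-Ab1 at 1.14 FPKM, while Cd74 averaged 0.60 and the pan-leukocyte gene Ptprc 0.81 FPKM. Of 5 red blood cell markers 3 were at 0 in all libraries, and of 6 pericyte markers 4 reached a mean of 1 FPKM, led by Notch3. For scale, the stromal gene Col3a1 averaged 6876 FPKM. The summed level of the 10 members was 0.0117% to 0.101% of the summed FPKM of all genes, which is a share of transcript level and not of cells.

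The sum of the members ordered the groups by depot first. It averaged 199.97 ± 22.2 FPKM (SD, n = 3) in BAT siCtrl d0, 175.7 ± 19.9 in BAT siCtrl d3, 132.9 ± 1.92 in BAT siH19 d0 and 104.9 ± 8.003 in BAT siH19 d3. In vWAT it averaged 430.2 ± 28.4 in siCtrl d0, 700.1 ± 28.9 in siCtrl d3, 432.0 ± 18.7 in siH19 d0 and 805.9 ± 54.7 in siH19 d3. Lyz2 alone made up 52.7% to 75.3% of the sum, so the members were also read gene by gene.

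**Figure D1:**
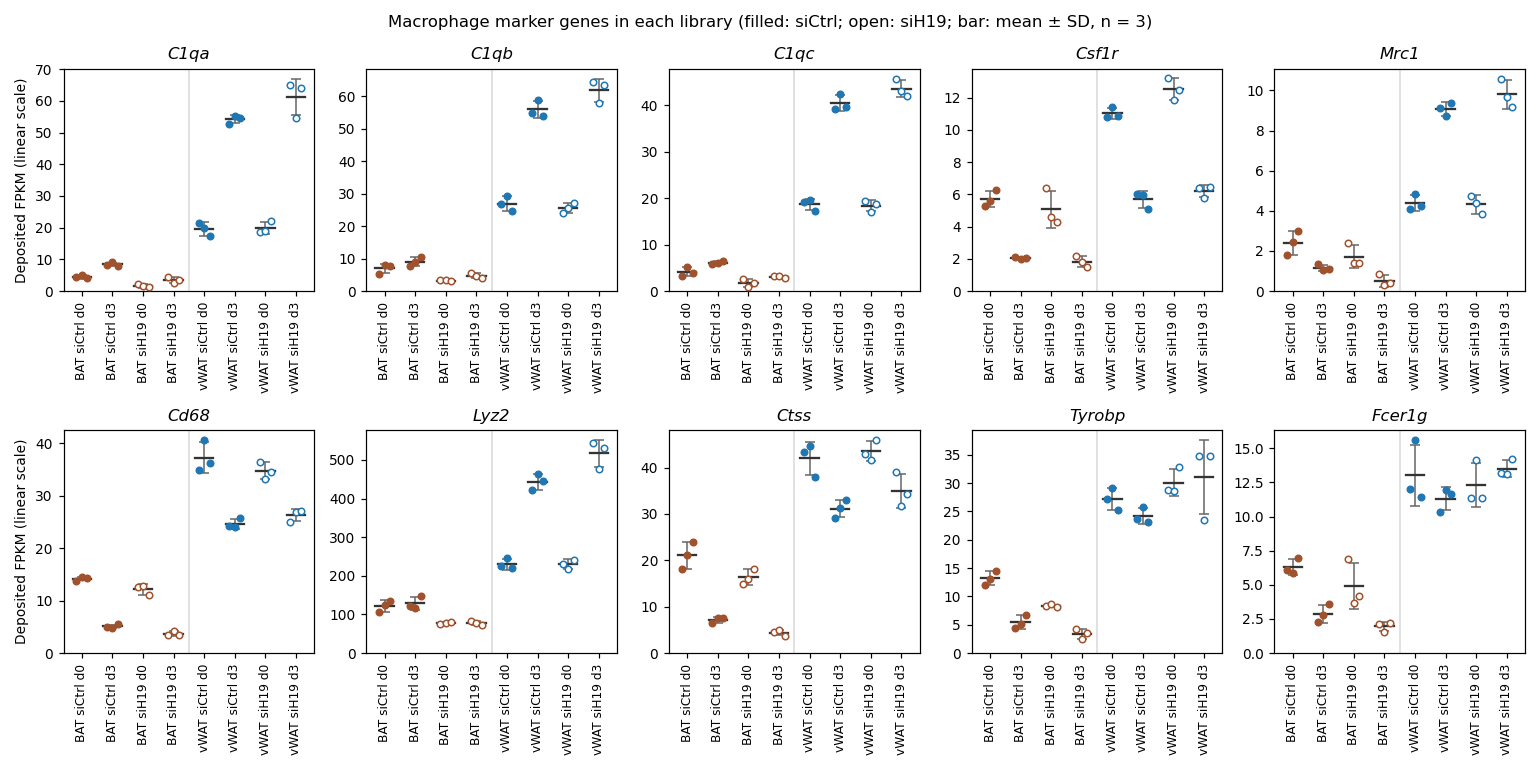
Level of each of the 10 members (FPKM, linear axis from 0) in every library, by depot, siRNA and day, with 1 point per library (filled for siCtrl, open for siH19) and a line at the mean with bars of ± SD for each group of 3. The vWAT libraries lie above the BAT libraries for every member but Csf1r, and the C1q genes and Lyz2 are highest in vWAT at d3.

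The C1q genes were taken first. In BAT, C1qa stood at 4.32, 5.00 and 4.04 FPKM in the siCtrl cultures at d0, at 8.37, 9.04 and 7.83 at d3, at 2.31, 1.63 and 1.18 in the siH19 cultures at d0 and at 4.33, 2.66 and 3.66 at d3. In vWAT, C1qa read 21.6, 19.8 and 17.3 FPKM in siCtrl at d0, 52.7, 55.2 and 54.5 at d3, 18.8, 19.1 and 22.2 in siH19 at d0 and 64.8, 54.5 and 64.1 at d3. All 12 vWAT libraries lay above all 12 BAT libraries, and in each depot and siRNA the d3 libraries lay above those at d0. The BAT siH19 libraries at d3 overlapped BAT siCtrl at d0. In BAT, C1qb stood at 5.36, 7.91 and 7.80 FPKM in the siCtrl cultures at d0, at 7.82, 8.86 and 10.5 at d3, at 3.44, 3.29 and 3.06 in the siH19 cultures at d0 and at 5.60, 4.57 and 3.99 at d3. In vWAT, C1qb read 26.8, 29.5 and 24.6 FPKM in siCtrl at d0, 55.04, 58.998 and 53.97 at d3, 24.03, 25.5 and 27.1 in siH19 at d0 and 64.5, 57.9 and 63.4 at d3. C1qb followed C1qa, with the difference that BAT siCtrl at d3 overlapped BAT siCtrl at d0. In BAT, C1qc stood at 3.31, 5.24 and 3.91 FPKM in the siCtrl cultures at d0, at 5.88, 6.03 and 6.41 at d3, at 2.61, 0.940 and 1.82 in the siH19 cultures at d0 and at 3.34, 3.16 and 2.88 at d3. In vWAT, C1qc read 19.1, 19.6 and 17.3 FPKM in siCtrl at d0, 39.1, 42.4 and 39.6 at d3, 19.3, 17.1 and 18.7 in siH19 at d0 and 45.6, 43.02 and 41.9 at d3. The depots did not overlap, and the lowest library of all was a BAT siH19 culture at d0. The ratio of the C1qc to the C1qb level, both per length, averaged 0.547 to 0.721 over the 8 groups. That of C1qa to C1qb averaged 0.517 in BAT siH19 d0 to 0.986 in vWAT siH19 d3, and its mean was higher at d3 than at d0 in each depot and siRNA.

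The receptors behaved differently from C1q and from each other. In BAT, Csf1r stood at 5.28, 5.59 and 6.29 FPKM in the siCtrl cultures at d0, at 2.12, 2.01 and 2.07 at d3, at 6.40, 4.59 and 4.26 in the siH19 cultures at d0 and at 2.197, 1.81 and 1.495 at d3. In vWAT, Csf1r read 10.8, 11.4 and 10.9 FPKM in siCtrl at d0, 6.03, 5.99 and 5.08 at d3, 13.2, 11.9 and 12.5 in siH19 at d0 and 6.38, 5.75 and 6.47 at d3. In both depots and both siRNAs the d3 libraries of Csf1r lay below those at d0, and vWAT at d3 overlapped BAT at d0, which made Csf1r the only member whose depots overlapped. In BAT, Mrc1 stood at 1.79, 2.43 and 2.98 FPKM in the siCtrl cultures at d0, at 1.33, 1.03 and 1.09 at d3, at 2.39, 1.38 and 1.40 in the siH19 cultures at d0 and at 0.858, 0.301 and 0.386 at d3. In vWAT, Mrc1 read 4.11, 4.82 and 4.22 FPKM in siCtrl at d0, 9.14, 8.71 and 9.37 at d3, 4.76, 4.37 and 3.85 in siH19 at d0 and 10.6, 9.68 and 9.16 at d3. Mrc1 was the lowest member in BAT siCtrl, and its d3 libraries lay below d0 in BAT and above d0 in vWAT.

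The lysosomal members included the most abundant one. In BAT, Lyz2 stood at 105, 125 and 134 FPKM in the siCtrl cultures at d0, at 122, 116 and 148 at d3, at 75.1, 78.3 and 79.4 in the siH19 cultures at d0 and at 82.9, 77.7 and 72.5 at d3. In vWAT, Lyz2 read 225, 246 and 219.9 FPKM in siCtrl at d0, 421, 463 and 446 at d3, 232, 218 and 242 in siH19 at d0 and 543, 478 and 532 at d3. Lyz2 was the highest member in all libraries, was close at d0 and d3 in BAT and was higher at d3 in vWAT. Its neighbour Lyz1 is nearly identical in sequence, so the split of reads between them is uncertain. In BAT, Cd68 stood at 13.8, 14.4 and 14.3 FPKM in the siCtrl cultures at d0, at 5.04, 4.80 and 5.45 at d3, at 12.6, 12.8 and 10.997 in the siH19 cultures at d0 and at 3.46, 4.16 and 3.49 at d3. In vWAT, Cd68 read 34.9, 40.5 and 36.2 FPKM in siCtrl at d0, 24.1, 24.1 and 25.7 at d3, 36.5, 33.2 and 34.5 in siH19 at d0 and 25.03, 26.9 and 27.1 at d3. Cd68 was lower at d3 in both depots. In BAT, Ctss stood at 18.1, 21.2 and 23.9 FPKM in the siCtrl cultures at d0, at 6.48, 7.52 and 7.56 at d3, at 14.97, 15.96 and 18.2 in the siH19 cultures at d0 and at 4.59, 4.86 and 3.75 at d3. In vWAT, Ctss read 43.5, 44.6 and 37.9 FPKM in siCtrl at d0, 29.1, 31.3 and 32.9 at d3, 42.97, 41.7 and 45.9 in siH19 at d0 and 38.9, 31.6 and 34.3 at d3. For Ctss the BAT libraries at d3 were the lowest, while vWAT siH19 at d3 overlapped vWAT siCtrl at d0.

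The ITAM adaptors came last. In BAT, Tyrobp stood at 12.04, 13.02 and 14.5 FPKM in the siCtrl cultures at d0, at 4.38, 5.17 and 6.74 at d3, at 8.22, 8.59 and 8.16 in the siH19 cultures at d0 and at 4.22, 2.44 and 3.47 at d3. In vWAT, Tyrobp read 27.2, 29.1 and 25.3 FPKM in siCtrl at d0, 23.6, 25.9 and 23.2 at d3, 28.8, 28.6 and 32.9 in siH19 at d0 and 34.7, 23.5 and 34.8 at d3. Tyrobp was lower at d3 in BAT and overlapped between days in vWAT, where the second siH19 library at d3 was below the other libraries of its group. In BAT, Fcer1g stood at 6.10, 5.89 and 6.96 FPKM in the siCtrl cultures at d0, at 2.26, 2.81 and 3.58 at d3, at 6.87, 3.69 and 4.18 in the siH19 cultures at d0 and at 2.12, 1.54 and 2.17 at d3. In vWAT, Fcer1g read 12.04, 15.6 and 11.5 FPKM in siCtrl at d0, 10.3, 11.96 and 11.6 at d3, 11.4, 14.2 and 11.4 in siH19 at d0 and 13.2, 13.1 and 14.2 at d3. Fcer1g was also lower at d3 in BAT. In vWAT its days overlapped, its siRNAs overlapped at d0, and at d3 the siH19 libraries lay above those of siCtrl.

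Ordered by their group means, C1qa, C1qb, C1qc and Lyz2 were lowest in BAT siH19 d0 and the other 6 members in BAT siH19 d3. C1qa, C1qb, C1qc, Lyz2, Mrc1, Tyrobp and Fcer1g were highest in vWAT siH19 d3, Cd68 in vWAT siCtrl d0, and Csf1r and Ctss in vWAT siH19 d0. The highest group mean was 6.67 times the lowest for Lyz2, 6.82 times for Csf1r, 18.98 times for C1qb, 19.04 times for Mrc1, and 35.9 times for C1qa. Of the 7 neighbouring pairs in each order, 2 (Cd68) to 4 (C1qb, Csf1r, Ctss, Fcer1g) overlapped. In vWAT siCtrl d3 and siH19 d3 stood next to each other and overlapped for C1qa, C1qb, C1qc, Cd68, Mrc1 and Ctss.

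The first comparison asked how the depots differed at the same siRNA and day. All 10 members were higher in vWAT in each of the 4 comparisons, with no overlap of libraries, and all were called by limma on log2(FPKM + 1) at an adjusted p under 0.05 and at least 1.3-fold. In siH19 d3 the 3 BAT libraries of Mrc1 were under 1 FPKM, so it entered that test through its vWAT libraries alone. Over all genes tested 31.2%, 48.6%, 30.4% and 41.2% were called in siCtrl d0, siCtrl d3, siH19 d0 and siH19 d3, and 21%, 32.1%, 20.6% and 25.2% were called higher in vWAT, so calls were common in general. Libraries did not overlap for 58.8%, 70.4%, 56.6% and 64.9% of genes. The median log2 difference of the members was 0.98, 2.03, 1.503 and 2.79 against 0.13, 0.16, 0.12 and 0.09 over all genes. Rescaling the libraries to a common median ratio took the all-gene medians to 0.02, -0.03, 0.00 and -0.04 and left all 10 members called.

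The C1q genes had the largest differences on the log2(FPKM + 1) scale in all 4 comparisons. C1qa was 4.39 times as high in vWAT as in BAT in siCtrl at d0, 6.44 times in siCtrl at d3, 11.7 times in siH19 at d0 and 17.2 times in siH19 at d3 (log2 differences 1.91 ± 0.11, 2.55 ± 0.06, 2.98 ± 0.16 and 3.78 ± 0.15, SE, n = 3 per group). C1qb was 3.84 times as high in vWAT as in BAT in siCtrl at d0, 6.19 times in siCtrl at d3, 7.83 times in siH19 at d0 and 13.1 times in siH19 at d3. C1qc was 4.50 times as high in vWAT as in BAT in siCtrl at d0, 6.61 times in siCtrl at d3, 10.3 times in siH19 at d0 and 13.9 times in siH19 at d3. The receptors parted at d3. Csf1r was 1.93 times as high in vWAT as in BAT in siCtrl at d0, 2.76 times in siCtrl at d3, 2.46 times in siH19 at d0 and 3.38 times in siH19 at d3, the smallest depot difference at d3. Mrc1 was 1.82 times as high in vWAT as in BAT in siCtrl at d0, 7.90 times in siCtrl at d3, 2.51 times in siH19 at d0 and 19.04 times in siH19 at d3, the smallest ratio at d0 in siCtrl (log2 difference 0.67 ± 0.14, limma adjusted p = 0.00871) and the largest at d3 in siH19, where its BAT level was under 1 FPKM. Without the 2 vWAT libraries that held neutrophil transcripts, which leaves 1 library in that group, 9 of 10 members were called in siCtrl d0 and Mrc1 was not, with a log2 difference of 0.60 (adjusted p = 0.122) against 0.67 with all libraries, and 2728 in place of 4096 of all genes were called. The lysosomal members and the adaptors were also higher in vWAT. Cd68 was 2.62 times as high in vWAT at d0 and 4.84 times at d3 in siCtrl. Lyz2 was 1.90 and 3.45 times as high, Ctss 1.99 and 4.33 times, Tyrobp 2.06 and 4.46 times and Fcer1g 2.06 and 3.93 times. Other cell markers moved with depot too: the sum of the 6 mesothelial markers, among them Upk1b and Wt1, was 1.36 to 10.03 FPKM over BAT libraries and 51.0 to 223.7 FPKM over vWAT libraries, with none of them at 0 in all libraries. Their part in the depot difference was not tested.

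**Figure D2:**
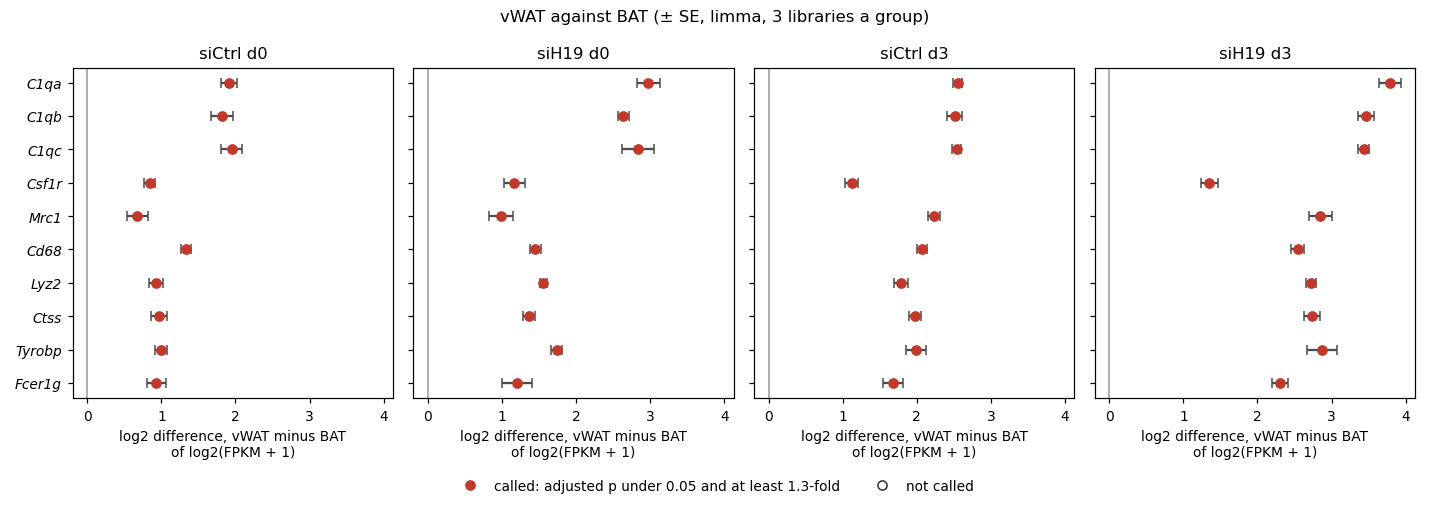
Log2 difference of each member between vWAT and BAT (log2(FPKM + 1), vWAT minus BAT) at each siRNA and day, with bars of ± SE from limma (n = 3 libraries per group) and filled points where the member was called. All differences lie above 0, and within each siRNA those at d3 are larger than those at d0 for every member.

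The second comparison asked how the members changed over 3 days of differentiation. In BAT, C1qa and C1qc rose while Csf1r, Mrc1, Cd68, Ctss, Tyrobp and Fcer1g fell, and in vWAT the C1q genes, Lyz2 and Mrc1 rose while Csf1r and Cd68 fell. Of the 10 members, 2 were called higher and 6 lower at d3 in BAT siCtrl, where 65.2% of all genes were called, 29.9% higher and 35.3% lower. In BAT siH19, 3 were called higher and 6 lower, with 60.6% of all genes called, 30.8% higher and 29.8% lower. In vWAT siCtrl 5 were higher and 3 lower, and in vWAT siH19 5 were higher and 2 lower, with 50.3% and 52.7% of all genes called (26.3% and 28.2% higher, 23.9% and 24.5% lower). With so many genes called, the counts say little about the members, and their directions and sizes are given instead. The median log2 change of the members was -0.79 and -0.91 in BAT siCtrl and siH19 (all genes -0.10 and -0.01) and 0.37 and 0.58 in vWAT (all genes 0.01 and 0.03). The cultures changed as a whole over these days: the sum of the 8 adipocyte markers was 3171 to 3448 FPKM at d0 and 38356 to 40089 FPKM at d3 in BAT siCtrl, and 4167 to 4169 and 19579.7 to 20564 FPKM in vWAT siCtrl. The sum of the 8 stromal markers was 14208 to 15173 FPKM at d0 and 2852 to 3176 FPKM at d3 in BAT siCtrl, and 11836 to 12404 and 10518 to 11496 FPKM in vWAT siCtrl. Their part in the changes of the members was not tested.

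C1qa rose in all 4 comparisons. The rise was 1.89-fold in BAT siCtrl (log2 change 0.79 ± 0.10, SE, limma adjusted p = 0.000261), 2.08-fold in BAT siH19 (adjusted p = 0.0123), 2.77-fold in vWAT siCtrl (log2 change 1.43 ± 0.08, adjusted p = 1.15e-05) and 3.06-fold in vWAT siH19. C1qc rose 1.47-fold and 1.75-fold in BAT siCtrl and siH19 (adjusted p = 0.0182 and 0.0422) and 2.16-fold and 2.37-fold in vWAT, and its call in BAT siH19 was lost with a pseudocount of 0.1, with no filter and without any single library except BAT siH19 d0 replicate 1. C1qb rose 2.08-fold and 2.42-fold in vWAT and 1.45-fold in BAT siH19 (adjusted p = 0.0187), while its ratio of 1.29 in BAT siCtrl did not pass the test (adjusted p = 0.104).

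Csf1r, the growth factor receptor, fell everywhere, to 0.362 and 0.361 of its d0 level in BAT siCtrl and siH19 and to 0.517 and 0.496 in vWAT siCtrl and siH19 (adjusted p of 2.29e-05 to 0.000793 in BAT and 5.87e-05 to 0.000125 in vWAT). Mrc1 fell in BAT to 0.478 and 0.299 of d0 (adjusted p = 0.00549 and 0.00741) and rose in vWAT 2.07-fold and 2.27-fold (adjusted p = 8.31e-05 and 9.58e-05). In BAT siH19 Mrc1 passed the filter of 1 FPKM in 3 libraries through its d0 libraries alone. Lyz2 did not pass the test in BAT (ratios of d3 to d0 of 1.06 and 1.002, 95% intervals of the fold 0.865 to 1.29 and 0.907 to 1.10) and rose 1.93-fold and 2.24-fold in vWAT. Cd68 fell to 0.359 and 0.305 of d0 in BAT and to 0.663 and 0.758 in vWAT. Ctss fell to 0.341 and 0.269 in BAT and to 0.741 in vWAT siCtrl, and in vWAT siH19 its ratio of 0.803 had an adjusted p of 0.0140 but was under 1.3-fold. Tyrobp fell in BAT to 0.412 and 0.406 and Fcer1g to 0.456 and 0.396. In vWAT neither adaptor passed the test, with ratios of 0.891 and 1.03 for Tyrobp and 0.868 and 1.10 for Fcer1g. Without both neutrophil-bearing libraries 8 members were called in vWAT siCtrl, with log2 changes of -0.82 to 1.29 against -0.85 to 1.43 with all libraries.

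**Figure D3:**
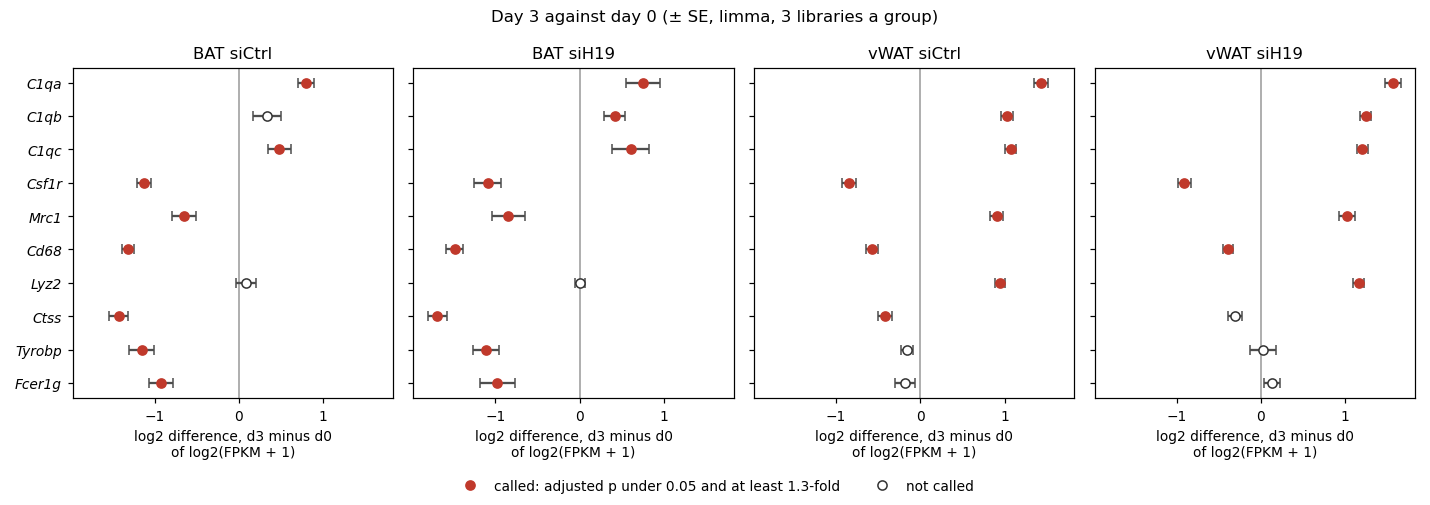
Log2 change of each member from d0 to d3 (log2(FPKM + 1), d3 minus d0) in BAT and vWAT for siCtrl and siH19, with bars of ± SE from limma (n = 3 libraries per group) and filled points where the member was called. The C1q genes lie above 0 in both depots, Csf1r and Cd68 below 0 in both, and Mrc1 and Lyz2 differ in sign or size between depots.

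The change over time was tested for a difference between depots. In siCtrl the term passed an adjusted p under 0.05 for all 10 members (53% of all genes) and in siH19 for 8 (42.8% of all genes), each time with the change in vWAT above that in BAT. It was widest for Mrc1 (log2 difference of changes 1.56 ± 0.17, limma adjusted p = 1.91e-05 in siCtrl and 1.87 ± 0.23, adjusted p = 8.59e-05 in siH19). It was narrowest for Csf1r (0.28 ± 0.11, adjusted p = 0.0497 in siCtrl and 0.18 ± 0.18, adjusted p = 0.461 in siH19), and in siCtrl the call of Csf1r was lost with no filter, with all libraries in 1 fit, with rescaled libraries, with the replicate block, without both libraries with neutrophil transcripts, and without any single library except BAT siCtrl d0 replicate 1 or vWAT siCtrl d3 replicate 3. C1qc was the other member that did not pass in siH19 (0.59 ± 0.25, adjusted p = 0.0765). Without the 2 libraries with neutrophil transcripts, with 1 library left in vWAT siCtrl d0, 8 members passed in siCtrl. The differences of the others were close to those with all libraries, 0.56 against 0.59 for C1qc (adjusted p = 0.0593) and 0.31 against 0.28 for Csf1r (adjusted p = 0.128).

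Ratios within a library, which do not depend on how the library was scaled, changed as well. C1qa per Csf1r, both in FPKM, averaged 0.785 in BAT siCtrl at d0 and 4.07 at d3, and 1.77 and 9.57 in vWAT siCtrl. Lyz2 per Csf1r went from 21.2 to 62.1 in BAT siCtrl and from 20.9 to 78.4 in vWAT siCtrl. Cd68 per Csf1r averaged 2.49 and 2.47 in BAT siCtrl and 3.37 and 4.37 in vWAT siCtrl. Mrc1 per Csf1r averaged 0.416 and 0.555 in BAT siCtrl and 0.397 and 1.61 in vWAT siCtrl. The members did not change by a common factor.

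The third comparison asked whether the members differed between siH19 and siCtrl. In BAT the means of all 10 members were lower in siH19, with C1qa, C1qb and Lyz2 called at both days, and in vWAT none passed the test. In BAT at d0, 4 members were called, all lower (1.94% of all genes were called and 1.32% called lower), and the libraries did not overlap for 6 (26.7% of all genes). In BAT at d3, 5 were called, all lower (8.57% of all genes called, 2.18% called lower), and 9 did not overlap (37.2% of all genes). Mrc1 is among these 9, but it passed the filter through its siCtrl libraries alone. Its direction and lack of overlap were thereby fixed, so it does not count as a result. The median log2 difference of the members was -0.47 at d0 and -0.58 at d3, against -0.03 and 0.05 over all genes. The count at d0 was not stable: leaving out BAT siCtrl replicate 1 left 2 calls, leaving out BAT siH19 replicate 1 left 1, and leaving out any of the other 4 libraries left 0. At d3 4 to 6 were called with any library left out.

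C1qa fell in BAT siH19 to 0.383 of siCtrl (log2 difference -1.03 ± 0.17, adjusted p = 0.0338) at d0 and to 0.422 of siCtrl (log2 difference -1.06 ± 0.15, adjusted p = 0.00620) at d3. C1qb fell to 0.464 of siCtrl (log2 difference -0.90 ± 0.14, adjusted p = 0.0335) at d0 and to 0.522 of siCtrl (log2 difference -0.81 ± 0.14, adjusted p = 0.0126) at d3. C1qc stood at 0.431 of siCtrl (log2 difference -0.91 ± 0.25, adjusted p = 0.112) at d0 and fell to 0.512 of siCtrl (log2 difference -0.79 ± 0.08, adjusted p = 0.00333) at d3. Lyz2 fell to 0.639 at d0 (adjusted p = 0.0257) and 0.605 at d3 (adjusted p = 0.00620). Tyrobp fell to 0.631 at d0 (adjusted p = 0.0255), and its ratio of 0.622 at d3 did not pass (adjusted p = 0.103). Ctss fell to 0.613 at d3 (adjusted p = 0.0154) after a ratio of 0.777 at d0 (adjusted p = 0.174). Cd68 stood at 0.726 at d3 with an adjusted p of 0.0437, below the 1.3-fold limit on the log2(FPKM + 1) scale. Csf1r was the member closest to siCtrl, with ratios of 0.889 and 0.887 and an interval of the fold at d3 of 0.759 to 1.11. Mrc1 stood at 0.718 and 0.448 and Fcer1g at 0.778 and 0.675, and neither passed at either day. At d3 Mrc1 passed the filter through the siCtrl libraries alone.

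The marker lists of other cells were read beside this difference. The adipocyte markers summed to 3171 to 3448 FPKM in siCtrl and 1597 to 2135 in siH19 at d0, and to 38356 to 40089 and 34870.2 to 37206 at d3. The mesothelial markers summed to 5.14 to 5.92 FPKM in siCtrl and 8.36 to 10.03 in siH19 at d0 and to 1.36 to 3.502 and 3.46 to 4.24 at d3. At d3 the stromal markers summed to 2852 to 3176 in siCtrl and 3298 to 3652 in siH19, the dendritic cell markers to 1.58 to 2.00 and 2.04 to 2.36, and the red blood cell markers to 1.37 to 2.13 and 0.142 to 1.04. The stromal sums overlapped at d0, and the sums of endothelial, pericyte, neutrophil, T and NK, B and mast cell markers overlapped between siRNAs at both days. Their part in the difference of the members was not tested.

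In vWAT the ratios of siH19 to siCtrl were 0.934 to 1.13 at d0 and 1.07 to 1.28 at d3, and 0 of 10 members were called by limma at either day (1.53% and 0.0305% of all genes called). At an unadjusted p under 0.05 there was 1 at d0, Csf1r, and there were 3 at d3, C1qb, Lyz2 and Fcer1g. The 95% intervals of the fold ran over the members from 0.758 to 1.26 at d0 and from 0.93 to 1.62 at d3, bounds that hold for no single member. These intervals are not adjusted for the number of genes. Those of Csf1r at d0 and of C1qb, Lyz2 and Fcer1g at d3 lay above 1. For the others a change within the member's own interval cannot be told from none. Without the 2 libraries with neutrophil transcripts the log2 differences at d0 ran from -0.11 to 0.19, against -0.09 to 0.17 with them. The difference between depots in the siRNA effect was tested directly. At d0 it passed for 3 members, C1qa (1.06 ± 0.20, limma adjusted p = 0.0397), Lyz2 (0.64 ± 0.11, adjusted p = 0.0327) and Tyrobp (0.74 ± 0.11, adjusted p = 0.0173), against 1.02% of all genes. Without both neutrophil-bearing libraries, with 1 library left in vWAT siCtrl d0, the differences were 0.92 for C1qa, 0.67 for Lyz2 and 0.74 for Tyrobp, and 0 of 10 members and 4 in place of 140 of all genes passed. It passed for 0 members without BAT siCtrl d0 replicate 2. It passed for 1 without any other single library except BAT siCtrl d0 replicate 1 and BAT siH19 d0 replicate 1. At d3 it passed for 7 members (10.5% of all genes), with C1qa (1.23 ± 0.17, adjusted p = 0.00268), Lyz2 (0.93 ± 0.13, adjusted p = 0.00244), C1qb (0.96 ± 0.16, adjusted p = 0.00495) and C1qc (0.89 ± 0.08, adjusted p = 0.00135) widest. Csf1r (0.23 ± 0.14, adjusted p = 0.347) did not pass. Whether the siRNA effect differed between days was tested too, and 0 members passed in BAT or vWAT (9.06% and 1.73% of all genes), with 0 in BAT and 1 in vWAT at an unadjusted p under 0.05. In vWAT those differences were -0.06 to 0.31, and -0.09 to 0.27 without the neutrophil-bearing libraries. These comparisons share libraries, so their values stand side by side and do not count as separate evidence.

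**Figure D4:**
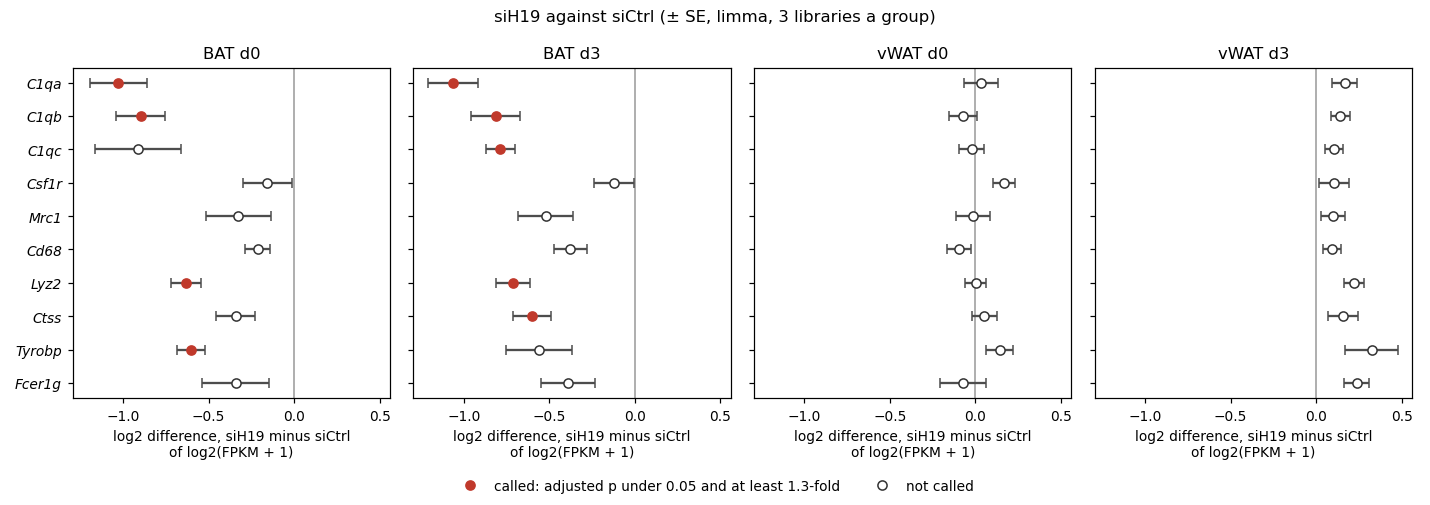
Log2 difference of each member between siH19 and siCtrl (log2(FPKM + 1), siH19 minus siCtrl) in each depot and day, with bars of ± SE from limma (n = 3 libraries per group) and filled points where the member was called. In BAT all 10 members lie below 0, C1qa lowest, and in vWAT they lie near 0 at d0 and slightly above 0 at d3.

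Other macrophage and myeloid genes were followed over the same comparisons, as counts of the 47 that passed the filter and were called. A gene that passed the filter only through its higher group had to be lower in the other, so the counts are a description. In BAT siCtrl 3 of 35 were higher and 28 lower at d3, and in BAT siH19 1 of 27 was higher and 23 lower. The shares of all genes were 29.9% and 30.8% higher and 35.3% and 29.8% lower. In vWAT siCtrl 7 of 43 were higher and 16 lower, and in vWAT siH19 9 of 43 were higher and 15 lower. Here the shares of all genes were 26.3% and 28.2% higher and 23.9% and 24.5% lower. Without the neutrophil-bearing libraries 7 of 41 were higher and 16 lower in vWAT siCtrl. The genes called higher were not the same without those libraries, as Adgre1 was then not called. With all libraries, the 7 genes that rose in vWAT siCtrl, fewer than the 16 that fell, were Adgre1, Cd163, F13a1, Lyve1, Marco, Ms4a6c and Siglec1. They include scavenger and endocytic receptors of resident macrophages, but another gene of these cells, Folr2, was among those that fell. F13a1, the A chain of coagulation factor XIII, went from 1.88 to 17.1 FPKM on average in vWAT siCtrl (log2 difference 2.66, adjusted p = 1.64e-06) and from 0.750 to 3.95 in BAT siCtrl (log2 difference 1.497, adjusted p = 2.30e-05). Cd163, a haemoglobin scavenger receptor, went from 0.906 to 7.49 FPKM in vWAT siCtrl (log2 difference 2.16, adjusted p = 1.24e-05). Marco, another scavenger receptor, went from 2.13 to 15.7 FPKM there (log2 difference 2.44, adjusted p = 1.79e-05), and Lyve1 from 0.234 to 5.53 FPKM (log2 difference 2.40, adjusted p = 4.12e-06). Lyve1 passed the filter through its d3 values alone, which fixed its direction. Cd163 in vWAT siCtrl and F13a1 in BAT siCtrl also had d0 means under 1 FPKM. The adjusted p-values of these genes are therefore a description too. Adgre1 rose in vWAT siCtrl (log2 difference 0.40, adjusted p = 0.00340) and fell in BAT siCtrl (log2 difference -0.70, adjusted p = 0.00124). Without those libraries the log2 differences in vWAT siCtrl were 2.74 for F13a1, 2.0996 for Cd163, 2.09 for Marco and 2.36 for Lyve1, each called, and 0.31 for Adgre1, not called (adjusted p = 0.0776). Folr2, a folate receptor of resident macrophages, fell in both (log2 difference -0.82, adjusted p = 0.000648 in vWAT and log2 difference -1.36, adjusted p = 7.76e-05 in BAT).

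Against depot, 33 of 40, 38 of 40, 35 of 37 and 40 of 40 of these genes were called higher in vWAT in siCtrl d0, siCtrl d3, siH19 d0 and siH19 d3. Among all genes tested 21%, 32.1%, 20.6% and 25.2% were. In siH19 d3 only 14 of the 47 genes had a mean of at least 1 FPKM in BAT, against 42 in vWAT. A gene that passed the filter through vWAT alone could only be higher there, so these counts are a description and no separate support. In siCtrl d0 without the neutrophil-bearing libraries 20 of 31 were called higher and 0 lower. Against siRNA, 1 of 31 was called lower in BAT at d0 (Folr2, log2 difference -0.85, adjusted p = 0.0479) and 7 of 24 at d3, with none higher. Among all genes 1.32% and 2.18% were called lower. The 7 were Adgre1 (log2 difference -0.66, adjusted p = 0.0118), Fcgr3 (log2 difference -0.67, adjusted p = 0.00778), Msr1 (log2 difference -0.78, adjusted p = 0.0199), F13a1, Folr2, Laptm5 and Alox5ap. In vWAT 0 of 41 and 0 of 42 were called.

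Partners of the members were read by role. Of the complement partners of C1q, C3, Serping1 and C1s1 had the highest levels. All 6 that passed the filter (C1ra, C1s1, C2, C3, C4b and Serping1) were lower at d3 in BAT in both siRNAs, where C1qa and C1qc rose. Of all genes 35.3% and 29.8% were called lower there in siCtrl and siH19. In vWAT siCtrl C2 was higher and C1ra and C4b lower at d3. None was called in any siRNA comparison. Csf1, the ligand of Csf1r, averaged 2056 FPKM in BAT siCtrl at d0 and 212 at d3 (log2 difference -3.28, adjusted p = 9.82e-08), and 1265 and 329.8 FPKM in vWAT siCtrl (log2 difference -1.94, adjusted p = 1.31e-07). Ligand and receptor both fell with differentiation, and without the neutrophil-bearing libraries the log2 difference of Csf1 in vWAT was -1.95, also called. Csf1 was higher in BAT siH19 than siCtrl at d3 (log2 difference 0.84, adjusted p = 0.00226), where Csf1r was not called. Il34, the other ligand of the receptor, was low, with group means of 1.15 to 3.22 FPKM. Among receptors that signal through Tyrobp and Fcer1g, Trem2 and Fcgr3 were the most abundant. Trem2 fell at d3 in BAT siCtrl (log2 difference -1.05, adjusted p = 0.000183) and did not pass in vWAT siCtrl (log2 difference -0.16, adjusted p = 0.387). Fcgr3 fell in BAT siCtrl (log2 difference -0.46, adjusted p = 0.0154) and did not pass in vWAT siCtrl (log2 difference -0.18, adjusted p = 0.111). Without the neutrophil-bearing libraries their log2 differences in vWAT were -0.04 and -0.09, not called. The list of lysosomal proteases and hydrolases holds 19 genes, led by Ctsd, Cst3 and Ctsl, of which Cst3 encodes a protease inhibitor. These genes are not particular to macrophages. At d3, 3 of 19 were higher and 11 lower in BAT siCtrl (29.9% and 35.3% of all genes), and 2 were higher and 3 lower in vWAT siCtrl (26.3% and 23.9% of all genes). With so many genes called, these counts say little about the list. In BAT siH19 at d3, Ctsh, Ctsk and Ctsl were called higher than siCtrl, while Ctss fell.

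**Figure D5:**
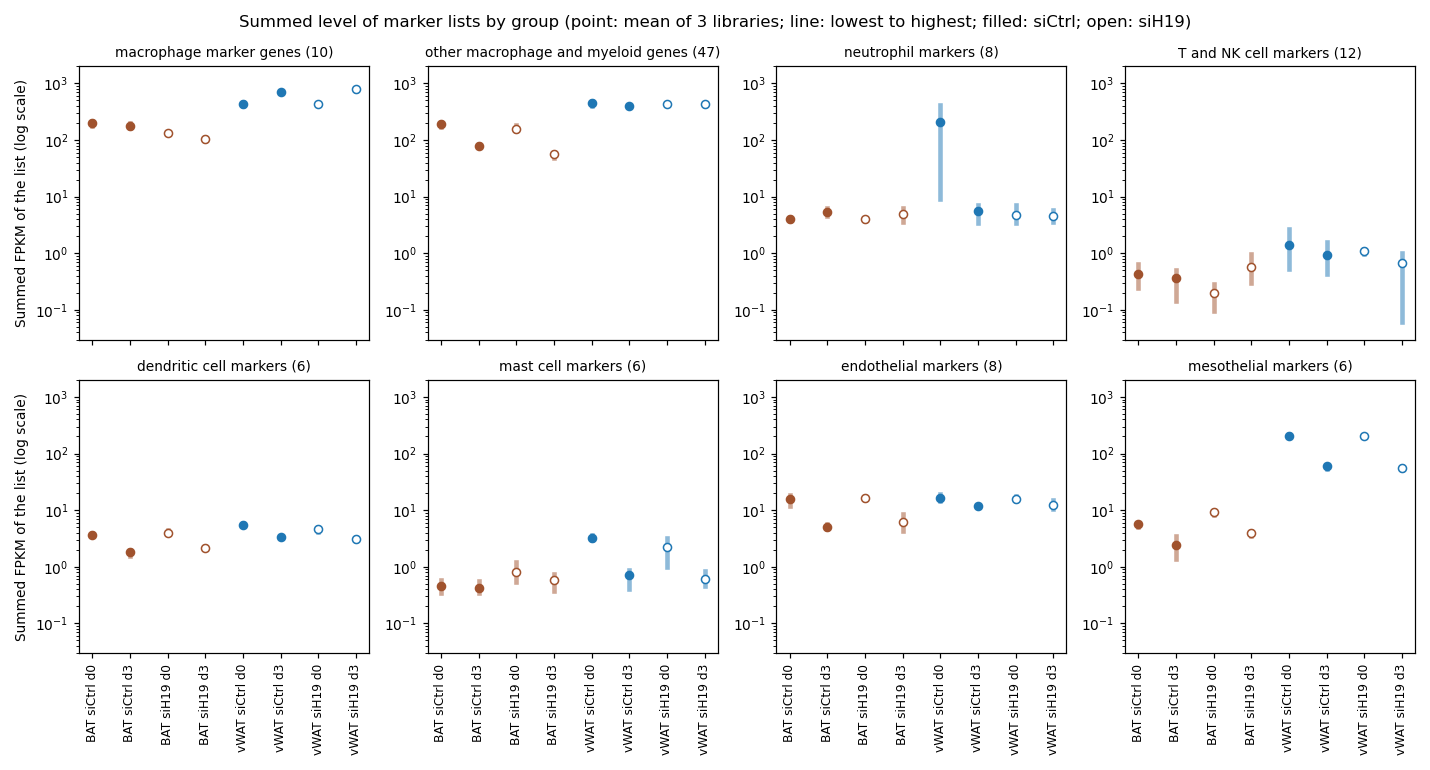
Summed FPKM (log axis) of the members and of the marker lists of other cell types in each group, with a point at the mean of 3 libraries and a line from the lowest to the highest library. The neutrophil sum spans a wide range in vWAT siCtrl d0 only, where 2 libraries reach 205.8 and 417.5 FPKM, the mesothelial sum differs by depot and the T and NK cell sum is low throughout.

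Over the 24 libraries all pairs of members were positively correlated. Across the 45 pairs Pearson's r of log2(FPKM + 1) was 0.451 to 0.993 with a median of 0.842, and within groups, after taking out the group means, it was -0.14 to 0.818 with a median of 0.353. Each member had an r of 0.796 (Csf1r) to 0.973 (Tyrobp) with the mean of the standardised members. Of 13455 genes with a mean of at least 1 FPKM, those closest to that mean were Wfdc17 (r = 0.984), Itgam (r = 0.983), Fcgr3 (r = 0.982), Spon1 (r = 0.980), Gdpd2 (r = 0.979), Pf4 (r = 0.976), Cyp7b1 (r = 0.976), Gm14866 (r = 0.975), Lum (r = 0.974) and C3 (r = 0.973). Itgam, an integrin of myeloid cells, Fcgr3, an Fc receptor, and Pf4, a chemokine, are on the list of other macrophage and myeloid genes, while Lum is a matrix proteoglycan on the list of stromal markers. The points share depots, days and siRNAs, so a gene that differs between depots scores high whatever cell makes it.

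In the annotation of the deposited table (GRCm38, Ensembl 87) the members lie on 8 chromosomes, and only the C1q genes share a chromosome. C1qb spans 4:136880129-136886187, C1qc 4:136889804-136893065 and C1qa 4:136895917-136898803, all on the minus strand. Fcer1g spans 1:171229572-171234365 and Lyz2 10:117277334-117282274, both on the minus strand, and Cd68 11:69664213-69666153 on the minus strand. Mrc1 spans 2:14229392-14332057, Ctss 3:95526786-95556403, Tyrobp 7:30413760-30417585 and Csf1r 18:61105572-61132149, all on the plus strand.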

How the data were processed

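Per the labels and the study's methods, the authors aligned the reads with TopHat2 2.0.10 to GRCm38 with the Ensembl 87 annotation and made FPKM with Cufflinks, version 2.2.1 in the submitters' processing notes and another version in the methods. The deposited FPKM are already scaled by length and library, so no count test was run. The authors checked read quality with FastQC 0.10.1 and tested differential expression with DESeq2. R 3.2.2 and STAR are also named in the submitters' notes, with roles not given in the sources used here. The labels say paired-end and the methods single-end reads. Antisense and near-identical genes cannot be told apart from these values.

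Each comparison was fitted in limma 3.58.1 (R 4.3.3; lmFit and eBayes with trend) on log2(FPKM + 1) over genes with at least 1 FPKM in at least 3 of its 6 libraries (12 for differences between differences), with Benjamini-Hochberg adjustment over all genes tested. A gene was called at an adjusted p under 0.05 and at least 1.3-fold, and a difference between differences at an adjusted p under 0.05. Fold changes on this scale understate the change of low genes, and ratios are of mean FPKM. p-values measure the spread between libraries that may be technical replicates. Tables were handled with Python 3.11.15 and pandas 2.3.3, and the fits were tested on simulated data.

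Depth is not in the table and was read from the steps between low values, of which 94.9% to 97.3% per library fell within 0.05 of a whole fragment. Replicates had a Pearson r of 0.968 to 0.978 and no pair was identical. The members and lists were chosen with earlier results of these data known. The rule for named genes took the members, H19, the 3 highest genes of each list, genes called in a comparison described, and the 10 genes most like the members. Not all of these are printed, and Cd74, Il34 and Ptprc were named after their values were seen. Of 208 list symbols, 2 were not analysed here, and 1 result is not reported here. The alternatives were another pseudocount (0.1), no filter, all 24 libraries in 1 fit, rescaled libraries, a replicate block, no minimum fold and leaving out libraries. Leaving out the 2 libraries with neutrophil transcripts was added after the data were seen.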

Additional observations from a re-analysis of the deposited data

Results flagged for a closer look

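These results are differences between depots in the same contrast that passed the limma test of the difference itself, each as vWAT minus BAT on the log2(FPKM + 1) scale with its adjusted p in brackets. For the change from d0 to d3 in siCtrl the differences were C1qa 0.64 (0.00136), C1qb 0.70 (0.0105), C1qc 0.59 (0.00979), Csf1r 0.28 (0.0497), Cd68 0.75 (4.31e-05), Lyz2 0.87 (0.000473), Mrc1 1.56 (1.91e-05), Ctss 1.01 (0.000149), Tyrobp 0.99 (0.000548) and Fcer1g 0.75 (0.00804). In siH19 they were C1qa 0.81 (0.0174), C1qb 0.83 (0.000585), Cd68 1.09 (1.75e-05), Lyz2 1.16 (2.81e-06), Mrc1 1.87 (8.59e-05), Ctss 1.37 (2.48e-05), Tyrobp 1.13 (0.00286) and Fcer1g 1.11 (0.00431). All are above 0.

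For siH19 against siCtrl at d0 the differences were C1qa 1.06 (0.0397), Lyz2 0.64 (0.0327) and Tyrobp 0.74 (0.0173), and at d3 they were C1qa 1.23 (0.00268), C1qb 0.96 (0.00495), C1qc 0.89 (0.00135), Cd68 0.47 (0.0157), Lyz2 0.93 (0.00244), Ctss 0.76 (0.00832) and Fcer1g 0.63 (0.0497). All are above 0, and in BAT each of these members had a lower mean in siH19. The fit at d0 uses the 2 vWAT siCtrl libraries that held neutrophil transcripts. Without both, with 1 library left in that group, the differences were 0.92 for C1qa, 0.67 for Lyz2 and 0.74 for Tyrobp (adjusted p of 0.298, 0.196 and 0.143), none passed, and 4 in place of 140 of all genes passed. With 3 libraries per group, single libraries that stand apart were not tested.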

How the results depend on the processing

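The counts of called members kept within 1.5 times of their value under every alternative run, except in BAT siH19 against siCtrl at d0 and in the difference between depots in that contrast. In BAT at d0 the 4 calls became 0 with no filter on low values, 0 with the replicate block and 0 to 2 with a library left out. For the difference between depots at d0, the 3 calls became 1 with no filter and 0 to 3 with a library left out, and 0 without both libraries with neutrophil transcripts. With a library left out, counts for d3 against d0 were 7 to 8 and 6 to 8 in BAT siCtrl and siH19 and 7 to 8 and 6 to 7 in vWAT, and for depots 9 to 10 in siH19 d3 and 10 elsewhere. No member changed direction under any alternative in a contrast where it was called. The cause of these losses was not tested.

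Over all genes, 245 were called in BAT siH19 against siCtrl at d0, but 35 with no filter, 526 with all libraries in 1 fit, 2 with the block, 395 with no minimum fold and 4 to 74 with a library left out. In BAT at d3 1071 became 2023 with no minimum fold and 631 without BAT siCtrl d3 replicate 2. In vWAT at d0 200 became 65 with no filter, 378 with all libraries, 2 with the block, 37 to 122 with a library left out and 5 without the neutrophil-bearing libraries, and at d3 4 became 15 with all libraries, 0 with the block and 1 to 5 with a library left out. For the difference between depots at d0 140 became 85 with no filter, 302 with all libraries, 81 with the block, 35 to 110 with a library left out and 4 without the neutrophil-bearing libraries. With a library left out that at d3 was 889 to 1432 against 1451, and the differences between days were 801 to 1091 against 1230 in BAT and 127 to 241 against 241 in vWAT, with 63 in vWAT without the neutrophil-bearing libraries. For vWAT against BAT in siCtrl d0 4096 became 6386 with no minimum fold and 2728 without the neutrophil-bearing libraries, which leaves vWAT siCtrl d0 with 1 library, taken to vary like the other groups.

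Rescaling moved the share of called genes that were higher from 67.2%, 66.1%, 67.7% and 61.3% to 51.8%, 48.1%, 52.0% and 46.8% in the depot comparisons, from 31.8% to 43.8% in BAT siH19 at d0, from 74.6% to 55.9% at d3, from 33.4% to 53.8% for the difference between depots at d3 and from 86.0% to 62.2% for the difference between days in BAT.

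The replicate numbers did not pair the libraries: in 0 of 12 group pairs were all 3 correlations over 0.1. With the block, the other counts stayed within 1.5 times of the count without it. The lowest levels, such as Mrc1 in BAT siH19 d3 and Fcer1g in BAT, rest on few fragments and carry the widest relative error.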

Other observations

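Of 18 genes used to describe macrophage activation, Spp1 (osteopontin), Lgals3 (galectin 3) and Il6 had the highest means over the 24 libraries, 256.7, 128.0 and 76.0 FPKM, and all are also made by other cells of fat. Spp1 averaged 845.1 FPKM in vWAT siCtrl at d0 and 185.8 at d3, and 98.5 and 40.7 FPKM in BAT siCtrl. It was called lower at d3 in both depots. Il6 averaged 249.0 and 3.06 FPKM in vWAT siCtrl and 60.4 and 1.74 FPKM in BAT siCtrl at d0 and d3. Retnla was at 0 in 9 libraries and averaged 3.13 FPKM in BAT siCtrl at d3 against 0.881 in vWAT siCtrl at d3. Of the genes that passed the filter, 3 of 8 were called higher and 4 lower at d3 in BAT siCtrl (29.9% and 35.3% of all genes), and 1 of 13 higher (Arg1) and 9 lower in vWAT siCtrl (26.3% and 23.9%). In vWAT siCtrl 13 of the 18 had a mean of at least 1 FPKM at d0 and 10 at d3. A gene that passed the filter through 1 group alone could only be lower in the other, so the counts for this list are a description. In BAT siH19 at d3, Cd80, Cd9, Il6 and Spp1 were called higher than in siCtrl, opposite in direction to the 5 members called there. In vWAT, Spp1 was called lower in siH19 at d0 and no gene of the list was called at d3. Against depot, 9 of 12 were called higher and 1 lower in vWAT in siCtrl d0, 6 of 11 and 2 in siCtrl d3, 9 of 12 and 1 in siH19 d0, and 4 of 10 and 3 in siH19 d3. In the same order 31.2%, 48.6%, 30.4% and 41.2% of all genes were called, and 21%, 32.1%, 20.6% and 25.2% called higher. Without the 2 vWAT siCtrl d0 libraries with neutrophil transcripts, 4 of 7 were called higher and 1 lower in vWAT in siCtrl d0, 0 of 9 were higher and 6 lower at d3 in vWAT siCtrl, where the log2 differences were -2.32 for Spp1 and -5.59 for Il6, both called, and that of Spp1 between siRNAs in vWAT at d0 was -0.84 and not called (adjusted p = 0.283).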
